A study of Homo sapiens with 28 samples.

Results

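The genes described here are the aldo-keto reductases AKR1C1, AKR1C2 and AKR1C3, the UDP-glucuronosyltransferases UGT2B10, UGT2B11, UGT2B15, UGT2B17 and UGT2B28, and the steroid 5α-reductase SRD5A1. They were taken by name from the gene tables, which held all 9 members among 25369 genes. Their RNA was measured in LNCaP, an established androgen-responsive human prostate cancer cell line derived from a lymph node metastasis. The study asked which transcripts of stressed LNCaP cells depend on the kinase PERK (encoded by EIF2AK3) and on the transcription factor ATF4. The 28 libraries fell into 7 groups of 4, numbered 1 to 4 within each group.

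In 6 groups the cells received tunicamycin at 2.5 µg/mL, an inhibitor of N-glycosylation that causes endoplasmic reticulum stress. TM_PERKi_siCtrl cells received in addition the PERK inhibitor GSK2606414 at 100 nM and carried the non-targeting siRNA siCtrl. TM_siPERK-1 and TM_siPERK-3 cells carried either of 2 siRNA oligos against PERK, and TM_siATF4-2 and TM_siATF4-3 cells either of 2 oligos against ATF4, each with tunicamycin and without inhibitor. TM_siCtrl cells carried siCtrl and received tunicamycin alone. DMSO_siCtrl cells carried siCtrl and received the solvent dimethyl sulfoxide alone. Treatment lasted 18 h, at the end of 2 days after transfection, so every group was transfected and no untransfected cells were included. Knockdown and inhibition were measured only with tunicamycin present, so the action of PERK or ATF4 without stress cannot be read from these groups. LNCaP is 1 tumour line, and the design text describes the 4 replicates as independent experiments.

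In prostate cells the supply of active androgen is set by enzymes that make dihydrotestosterone and by enzymes that remove it. SRD5A1 reduces testosterone to dihydrotestosterone. AKR1C2 reduces dihydrotestosterone to a weak androgen, AKR1C1 inactivates progesterone, and AKR1C3 forms testosterone from androstenedione. UGT2B15 and UGT2B17 attach glucuronic acid to dihydrotestosterone and its reduced metabolites, which makes them water-soluble and inactive, and are the main androgen-conjugating enzymes of the prostate. UGT2B28 acts on some of the same androgen metabolites, and UGT2B10 is known mainly for conjugating nicotine in the liver. AKR1C3 and SRD5A1 make active androgens, so the heading of steroid inactivation does not cover all 9 genes. The AKR1C genes are also known targets of NRF2, the oxidative stress factor, and UGT2B15 and UGT2B17 are known to be repressed by androgen in LNCaP.

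Several members are near-identical neighbours in the genome, and this bears on every value given for them. On hg19, the build named in the submitters' processing notes, AKR1C1 (chr10:5005454-5020158, plus strand), AKR1C2 (chr10:5029968-5060225, minus strand) and AKR1C3 (chr10:5090958-5149878, plus strand) lie side by side. UGT2B17 (chr4:69402903-69434245, minus strand), UGT2B15 (chr4:69512315-69536494, minus strand), UGT2B11 (chr4:70066051-70080449, minus strand) and UGT2B28 (chr4:70146217-70160768, plus strand) form a second cluster. UGT2B10 was listed at chr4:69681711-69697735 on the plus strand and at chr4:69870295-69886115 on the minus strand, with copies of UGT2B10, UGT2B15 and UGT2B17 on an alternative haplotype contig. SRD5A1 (chr5:6633500-6669675, plus strand) stands alone. All intervals span the annotated exons of the tables. In the GENCODE v29 transcripts, the coding sequences of AKR1C1 and AKR1C2 differed at 19 of 972 bases, an identity of 98.0%. The identity was 96.5% between UGT2B15 and UGT2B17, 97.0% between UGT2B11 and UGT2B28, and 94.8% between UGT2B10 and UGT2B11.

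The longest stretches of coding sequence that each pair shares show how far a read can be from any base that tells the genes apart. The sequences run 5′ to 3′ from the GENCODE v29 transcripts (GRCh38), with the shared stretch in lower case and the first differing base on either side in capitals. The AKR1C stretch runs to the stop codon and therefore has a capital at its start only.
AKR1C1: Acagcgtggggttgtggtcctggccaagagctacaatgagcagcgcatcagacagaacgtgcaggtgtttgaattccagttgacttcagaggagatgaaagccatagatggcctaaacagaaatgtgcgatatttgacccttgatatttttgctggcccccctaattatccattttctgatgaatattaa
AKR1C2: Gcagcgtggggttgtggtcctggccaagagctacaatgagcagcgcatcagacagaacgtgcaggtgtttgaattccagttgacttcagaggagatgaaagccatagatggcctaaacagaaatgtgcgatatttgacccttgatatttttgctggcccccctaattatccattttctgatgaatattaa
UGT2B15: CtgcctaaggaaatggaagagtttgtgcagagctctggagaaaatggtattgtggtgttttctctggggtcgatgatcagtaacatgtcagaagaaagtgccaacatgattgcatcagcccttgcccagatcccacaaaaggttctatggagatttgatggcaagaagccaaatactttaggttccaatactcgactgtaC
UGT2B17: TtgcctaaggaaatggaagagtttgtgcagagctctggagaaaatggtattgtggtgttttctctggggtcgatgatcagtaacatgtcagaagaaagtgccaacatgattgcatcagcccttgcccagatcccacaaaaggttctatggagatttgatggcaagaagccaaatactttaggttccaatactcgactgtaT
UGT2B11: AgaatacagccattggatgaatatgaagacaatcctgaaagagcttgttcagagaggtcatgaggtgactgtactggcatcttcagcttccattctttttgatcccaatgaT
UGT2B28: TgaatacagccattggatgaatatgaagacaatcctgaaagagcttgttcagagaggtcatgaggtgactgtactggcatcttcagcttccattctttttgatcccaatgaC
The shared stretch is 189 bases long in the AKR1C pair, 199 bases in UGT2B15 and UGT2B17, and 110 bases in UGT2B11 and UGT2B28.

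Of all 50-base stretches of a gene's transcripts, the share that also occurs in another gene was 27.0% for AKR1C1, 48.1% for AKR1C2 and 9.55% for AKR1C3. It was 30.9% for UGT2B10, 40.9% for UGT2B11, 27.8% for UGT2B15, 27.8% for UGT2B17 and 34.8% for UGT2B28, against 1.12% for SRD5A1. With 100-base stretches these shares fell to between 3.85% and 28.3% in the 8 family members and to 0 in SRD5A1. How reads that matched several genes were counted is not given in the sources used here. The split of reads between near-identical genes is therefore uncertain, and sums over each near-identical set stand beside the single genes below. These sums do not hold every shared stretch. Of the 50-base stretches, 22.4% of UGT2B11 also occur in UGT2B25P and 14.8% of UGT2B10 in UGT2B27P, which lie outside the sums. On the haplotype contig, annotated exons of UGT2B15 and UGT2B17 overlap each other.

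The data are raw read counts per gene. Library totals ranged from 10794637 to 17253801 counts, and levels are given as CPM, counts scaled to library size with edgeR's TMM factors. A gene entered the test if enough libraries of 1 group held about 10 counts, which was 0.733 CPM at the median depth, and 14314 genes did so. Differences are log2 fold changes ± standard error from edgeR's quasi-likelihood test in 1 fit over all 28 libraries, with Benjamini-Hochberg adjustment over all genes tested, and a gene is called where the adjusted p is under 0.05. The targeted genes followed their labels. EIF2AK3 averaged 24.6 ± 4.0 CPM in TM_siPERK-1 and 21.5 ± 2.14 CPM in TM_siPERK-3, against 89.2 ± 6.51 CPM in TM_siCtrl (SD, n = 4 each). ATF4 averaged 237 ± 82.4 CPM in TM_siATF4-2 and 114 ± 19.0 CPM in TM_siATF4-3, against 1511 ± 37.4 CPM in TM_siCtrl (SD, n = 4 each).

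All 8 markers of prostate luminal epithelium were tested in these cells, and their summed level was 2430 to 3973 CPM over the 6 tunicamycin groups, against 5485 to 6322 CPM in DMSO_siCtrl. They did not move as 1, since in TM_siCtrl relative to DMSO_siCtrl 5 were called lower and 2 higher. Of all genes tested, 34.7% were called lower and 34.3% higher there. Of 4 basal markers, 2 or 3 were at 0 counts in every group and the sum stayed at or under 1.49 CPM. The sum of 5 hepatocyte markers stayed at or under 3.98 CPM. Of 5 fibroblast markers, 4 were under 1 CPM in every group, and their sum, carried by COL1A1, was 32.9 to 39.5 CPM in TM_siCtrl, against 17.8 to 22.1 CPM in DMSO_siCtrl. In the ATF4 siRNA groups that sum was 14.1 to 23.9 CPM. In TM_PERKi_siCtrl, TM_siPERK-1 and TM_siPERK-3 it was 29.6 to 41.2 CPM. This sum was therefore high with tunicamycin and low with ATF4 siRNA, as AKR1C1 and AKR1C2 were. In TM_siPERK-3 they differed, since the sum was 34.3 to 38.2 CPM, within the TM_siCtrl range, and both AKR1C genes were lower than in TM_siCtrl. The part of this sum in the AKR1C results was not tested. In bulk RNA, fewer cells of a type and less RNA per cell cannot be told apart.

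AKR1C1 and AKR1C2 rose with tunicamycin and were near the limit of detection without it. AKR1C2 had 5.29, 6.66, 6.54 and 5.05 CPM in the 4 TM_siCtrl libraries, against 0.549, 0.477, 0.857 and 0.634 CPM in DMSO_siCtrl. AKR1C1 had 1.78, 2.20, 2.90 and 1.93 CPM in TM_siCtrl, against 0.165, 0.119, 0.0612 and 0.0529 CPM in DMSO_siCtrl. Every TM_siCtrl library lay above every DMSO_siCtrl library for both genes. AKR1C1 was counted only 7 times over the 4 DMSO_siCtrl libraries, a count with an exact 95% Poisson interval of 2.81 to 14.4 that covers counting error only. The log2 difference of TM_siCtrl to DMSO_siCtrl was 3.21 ± 0.24, adjusted p = 2.83e-15 for AKR1C2 and 4.34 ± 0.41, adjusted p = 2.3e-12 for AKR1C1. Both genes entered the test only through TM_siCtrl, the inhibitor group and the PERK siRNA groups, where their counts were high enough. Their fold over DMSO_siCtrl is therefore poorly bounded, more so for AKR1C1, and adjusted p-values against DMSO_siCtrl hold that selection. Summed over both genes, the level was 8.09 ± 1.25 CPM in TM_siCtrl and 0.729 ± 0.136 CPM in DMSO_siCtrl (SD, n = 4 each), a ratio of 11.1.

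**Figure D1:**
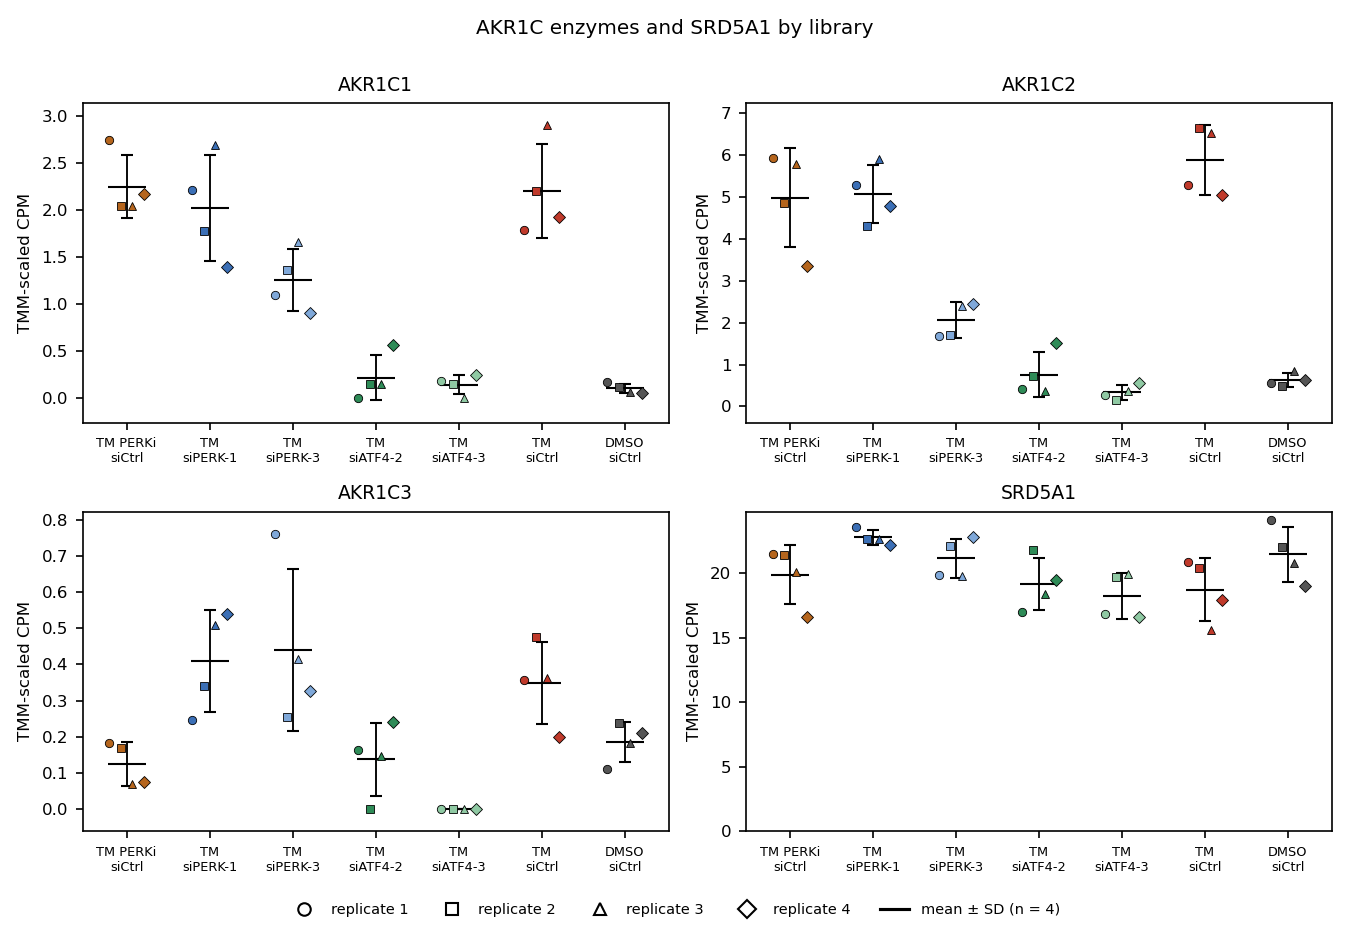
Levels of AKR1C1, AKR1C2, AKR1C3 and SRD5A1 in each of the 28 libraries, in TMM-scaled CPM on the vertical axis, by group on the horizontal axis. Points are libraries, with a symbol for each replicate number, and bars are group means ± SD (n = 4). AKR1C1 and AKR1C2 are high in TM_siCtrl, TM_PERKi_siCtrl and TM_siPERK-1, lower in TM_siPERK-3, and low in both ATF4 siRNA groups and in DMSO_siCtrl.

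With ATF4 siRNA both genes were low despite tunicamycin. AKR1C2 had 0.409, 0.725, 0.369 and 1.52 CPM in TM_siATF4-2 and 0.270, 0.142, 0.359 and 0.567 CPM in TM_siATF4-3, against the TM_siCtrl values given above. AKR1C1 had 0, 0.145, 0.148 and 0.560 CPM in TM_siATF4-2 and 0.180, 0.142, 0 and 0.243 CPM in TM_siATF4-3. None of these 8 libraries reached the lowest TM_siCtrl library for either gene. AKR1C2 fell by 2.96 ± 0.25 (adjusted p = 5.43e-13) on the log2 scale in TM_siATF4-2 and by 4.12 ± 0.30 (adjusted p = 4.04e-15) in TM_siATF4-3 relative to TM_siCtrl. AKR1C1 fell by 3.32 ± 0.38 (adjusted p = 1.42e-09) in TM_siATF4-2 and fell by 3.84 ± 0.43 (adjusted p = 2.98e-10) in TM_siATF4-3. Neither ATF4 siRNA group had all its libraries past the filter on low counts for either gene. These folds are therefore poorly bounded too, and their adjusted p-values hold the same selection. Replicate 4 of TM_siATF4-2 was the highest of the ATF4 siRNA libraries for both genes. Without it the AKR1C1 difference of TM_siATF4-2 to TM_siCtrl was −4.32, adjusted p = 1.61e-10. Against DMSO_siCtrl the ranges overlapped and neither gene was called. The difference for AKR1C2 was 0.26 ± 0.37 (95% interval −0.47 to 0.99) in TM_siATF4-2 and −0.91 ± 0.46 (95% interval −1.82 to −0.01) in TM_siATF4-3. The intervals are approximate and somewhat too narrow, and the edgeR test gave an unadjusted p of 0.0555 for AKR1C2 in TM_siATF4-3. For AKR1C1 it was 1.02 ± 0.71 (95% interval −0.38 to 2.42) and 0.49 ± 0.79 (95% interval −1.06 to 2.04). These few counts leave both intervals wide.

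The PERK siRNAs differed from each other for AKR1C2. AKR1C2 had 1.69, 1.70, 2.40 and 2.45 CPM in TM_siPERK-3, all below the 4 TM_siCtrl libraries, and 5.29, 4.30, 5.90 and 4.79 CPM in TM_siPERK-1, which overlapped them. AKR1C2 fell by 1.5 ± 0.21 on the log2 scale in TM_siPERK-3 relative to TM_siCtrl (adjusted p = 4.47e-07), and its difference in TM_siPERK-1 was −0.21 ± 0.17 (adjusted p = 0.397). Tested directly, AKR1C2 was higher in TM_siPERK-1 than in TM_siPERK-3 by 1.29 ± 0.21 (adjusted p = 7.52e-05), with no overlap. It was the only 1 of 8 tested members called between these oligos, beside 4.73% of all genes tested (2.24% higher). AKR1C1 had 2.21, 1.77, 2.70 and 1.39 CPM in TM_siPERK-1 and 1.1, 1.36, 1.66 and 0.898 CPM in TM_siPERK-3. The TM_siPERK-3 libraries lay below all TM_siCtrl libraries, and of the TM_siPERK-1 libraries 2 lay below that range and 2 within it. The AKR1C1 difference to TM_siCtrl was −0.80 ± 0.27, adjusted p = 0.0228 in TM_siPERK-3 and −0.11 ± 0.23, adjusted p = 0.786 in TM_siPERK-1. The AKR1C1 call in TM_siPERK-3 was lost without TM_siCtrl replicate 3 (−0.65, adjusted p = 0.097), without TM_siPERK-3 replicate 1 (−0.74, adjusted p = 0.0639) and without TM_siPERK-3 replicate 4 (−0.66, adjusted p = 0.0921). Between the oligos AKR1C1 differed by 0.69 ± 0.27 (adjusted p = 0.162), which was not called. EIF2AK3 itself differed between them by 0.20 ± 0.08 (adjusted p = 0.195) and ATF4 by 0.29 ± 0.15 (adjusted p = 0.337), neither of which was called. The ATF4 libraries did not overlap, with 1363 to 1461 CPM in TM_siPERK-1 and 1111 to 1198 CPM in TM_siPERK-3, and lay below the 1479 to 1562 CPM of TM_siCtrl. The ATF4 difference to TM_siCtrl was −0.10 ± 0.15, adjusted p = 0.685 in TM_siPERK-1 and −0.38 ± 0.15, adjusted p = 0.0554 in TM_siPERK-3, and its part in the AKR1C2 difference was not tested. Both PERK siRNA groups stayed above DMSO_siCtrl, AKR1C2 by 3.00 ± 0.25, adjusted p = 7.94e-14 in TM_siPERK-1 and 1.71 ± 0.30, adjusted p = 4.96e-06 in TM_siPERK-3.

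With the PERK inhibitor, AKR1C2 had 5.94, 4.84, 5.78 and 3.36 CPM and AKR1C1 had 2.74, 2.04, 2.04 and 2.17 CPM. Both overlapped TM_siCtrl, and the differences were −0.24 ± 0.18, adjusted p = 0.303 for AKR1C2 and 0.03 ± 0.24, adjusted p = 0.938 for AKR1C1. Their 95% intervals were −0.59 to 0.10 and −0.43 to 0.49 in the same order, so a fall of the size seen for AKR1C2 with TM_siPERK-3 lies outside the first. Relative to DMSO_siCtrl the inhibitor group was higher by 2.97 ± 0.25, adjusted p = 9.91e-14 for AKR1C2 and 4.37 ± 0.42, adjusted p = 2.77e-12 for AKR1C1.

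Ordered by mean level, AKR1C2 was highest in TM_siCtrl (5.88 ± 0.831 CPM), then TM_siPERK-1 (5.07 ± 0.686), TM_PERKi_siCtrl (4.98 ± 1.18), TM_siPERK-3 (2.06 ± 0.421), TM_siATF4-2 (0.756 ± 0.534), DMSO_siCtrl (0.629 ± 0.165) and TM_siATF4-3 (0.335 ± 0.178; SD, n = 4 each). Its ranges were separate between TM_PERKi_siCtrl and TM_siPERK-3 and between TM_siPERK-3 and TM_siATF4-2, and overlapped between all other neighbours in that order. For AKR1C1 the order was TM_PERKi_siCtrl, TM_siCtrl, TM_siPERK-1, TM_siPERK-3, TM_siATF4-2, TM_siATF4-3 and DMSO_siCtrl, and only TM_siPERK-3 and TM_siATF4-2 had separate ranges. The pooled share of AKR1C1 in the counts of the pair was 27.0% in TM_siCtrl and 13.7% in DMSO_siCtrl. In the libraries of DMSO_siCtrl that share ranged from 6.67% to 23.1%, on few counts. The sums over both genes followed the single genes. Relative to TM_siCtrl the sum was 0.410 times as high in TM_siPERK-3, 0.120 times in TM_siATF4-2 and 0.0588 times in TM_siATF4-3, and those 3 groups did not overlap TM_siCtrl.

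The start regions of AKR1C1 and AKR1C2 are shown because the levels of both genes moved together. Across the 28 libraries their log2 levels correlated with a Pearson r of 0.94, which is a description of libraries that share groups and, for this pair, part of their sequence. Each line gives the 300 bases around the RefSeq start site on GRCh38.p14, most of them before it, at chr10:4963165-4963464 (plus strand) for AKR1C1 and chr10:5003808-5004107 (minus strand) for AKR1C2. Capitals mark the bases at which the aligned windows differ.
AKR1C1: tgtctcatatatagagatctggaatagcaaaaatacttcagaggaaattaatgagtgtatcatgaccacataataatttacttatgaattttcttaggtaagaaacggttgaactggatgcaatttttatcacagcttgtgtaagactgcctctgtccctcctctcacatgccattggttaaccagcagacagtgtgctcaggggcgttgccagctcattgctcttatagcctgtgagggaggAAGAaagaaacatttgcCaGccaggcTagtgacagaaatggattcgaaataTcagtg
AKR1C2: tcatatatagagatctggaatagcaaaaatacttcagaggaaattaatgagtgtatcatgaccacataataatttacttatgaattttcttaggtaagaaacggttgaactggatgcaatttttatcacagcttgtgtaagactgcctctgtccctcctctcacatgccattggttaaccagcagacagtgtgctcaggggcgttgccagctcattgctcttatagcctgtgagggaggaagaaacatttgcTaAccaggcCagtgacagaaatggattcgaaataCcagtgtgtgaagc
The windows aligned over 296 columns, of which 288 were identical, 4 were mismatches and 4 were gaps, an identity of 97.3%. RefSeq held this window for 7 of the 9 members. Both strands were searched for the NRF2 core TGACNNNGC, the ATF4 core TGATGNAA, the AP-1 core TGANTCA, the androgen receptor core AGAACA and the cAMP response core TGACGTCA. Matches of different motifs may overlap. None of the 5 cores occurred in the windows of AKR1C1, AKR1C2, AKR1C3 or SRD5A1. TGACNNNGC was present on the minus strand of UGT2B10 and UGT2B11 as GCAAGGTCA, 213 and 217 bases before the start site, and AGAACA was present in UGT2B15. Of 35116 RefSeq windows of the same length, 13.3% held the NRF2 core, 3.62% the ATF4 core, 7.71% the AP-1 core, 14.8% the androgen receptor core and 1.85% the cAMP response core.

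AKR1C3, which forms testosterone, was near the limit of detection in every group and did not pass the filter on low counts. It had between 0 and 9 counts per library and 92 in all. Over the 4 libraries of a group it was counted 6 times in TM_PERKi_siCtrl, 23 times in TM_siPERK-1, 21 times in TM_siPERK-3 and 7 times in TM_siATF4-2, against 22 times in TM_siCtrl and 13 times in DMSO_siCtrl. No count fell in any of the 4 TM_siATF4-3 libraries. Against a floor of 3 counts over that group, AKR1C3 was 5.71-fold lower in TM_siATF4-3 than in TM_siCtrl and 3.00-fold lower than in DMSO_siCtrl. These folds take the counts of 22 in TM_siCtrl and 13 in DMSO_siCtrl as exact, so they are not lower bounds. Fitted by edgeR without the filter, AKR1C3 was called lower in TM_siATF4-3 than in TM_siCtrl (adjusted p = 3.32e-05), DMSO_siCtrl (adjusted p = 0.00228) and TM_siATF4-2 (adjusted p = 0.0491). In that fit it was also called lower in the ATF4 siRNA groups than in the PERK siRNA groups (adjusted p = 1.15e-06), and lower with the inhibitor than in the PERK siRNA groups (−1.75 ± 0.55, adjusted p = 0.00848). The other 10 comparisons did not call it, and a fitted fold to TM_siATF4-3 is no bound, since that group had no counts.

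The UGT2B genes did not follow the AKR1C genes under tunicamycin. In TM_siCtrl relative to DMSO_siCtrl, 4 of the 8 tested members were called, 2 higher (AKR1C1 and AKR1C2) and 2 lower (UGT2B11 and UGT2B28), beside 69.0% of all genes tested (34.3% higher, 34.7% lower). UGT2B28 had 2.56, 2.38, 2.25 and 0.930 CPM in TM_siCtrl, against 11.9, 10.8, 12.7 and 3.54 CPM in DMSO_siCtrl, and all TM_siCtrl libraries lay lower. UGT2B11 had 15.0, 11.5, 7.70 and 6.17 CPM in TM_siCtrl, against 31.6, 27.1, 25.3 and 11.5 CPM in DMSO_siCtrl, and the ranges overlapped at replicate 4 of DMSO_siCtrl. UGT2B28 fell by 2.24 ± 0.42 (adjusted p = 5.38e-05) and UGT2B11 by 1.22 ± 0.37 (adjusted p = 0.00574) on the log2 scale. UGT2B10 had 6.72, 5.23, 3.56 and 2.19 CPM in TM_siCtrl, against 9.28, 8.53, 6.67 and 5.55 CPM in DMSO_siCtrl, and its difference of −0.74 ± 0.34 was not called (adjusted p = 0.0586), while 6 of 16 alternative fits called it (adjusted p = 1.78e-07 to 0.196). The sum of UGT2B10, UGT2B11 and UGT2B28 was 16.5 ± 6.53 CPM in TM_siCtrl and 41.1 ± 14.1 CPM in DMSO_siCtrl (SD, n = 4 each), a ratio of 0.402, with overlapping ranges. The fold of UGT2B28 is larger than that of the sum, and its share in the counts of these 3 genes was 12.1% in TM_siCtrl and 23.5% in DMSO_siCtrl.

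The androgen-conjugating UGT2B15 and UGT2B17 were not called with tunicamycin alone. UGT2B17 had 53.2, 54.2, 36.5 and 33.7 CPM in TM_siCtrl, against 52.1, 46.0, 36.3 and 40.6 CPM in DMSO_siCtrl. UGT2B15 had 61.0, 60.3, 38.9 and 31.1 CPM in TM_siCtrl, against 67.3, 64.8, 44.1 and 42.4 CPM in DMSO_siCtrl. The groups overlapped for both, with differences of 0.03 ± 0.21, adjusted p = 0.918 for UGT2B17 and −0.19 ± 0.30, adjusted p = 0.606 for UGT2B15. The 95% intervals of these differences were −0.38 to 0.43 and −0.78 to 0.41 in the same order. For UGT2B17, 0 of 16 alternative fits called it. For UGT2B15, 1 of 16 did, the edgeR fit with the replicate number as a block (−0.21, adjusted p = 0.0271).

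**Figure D2:**
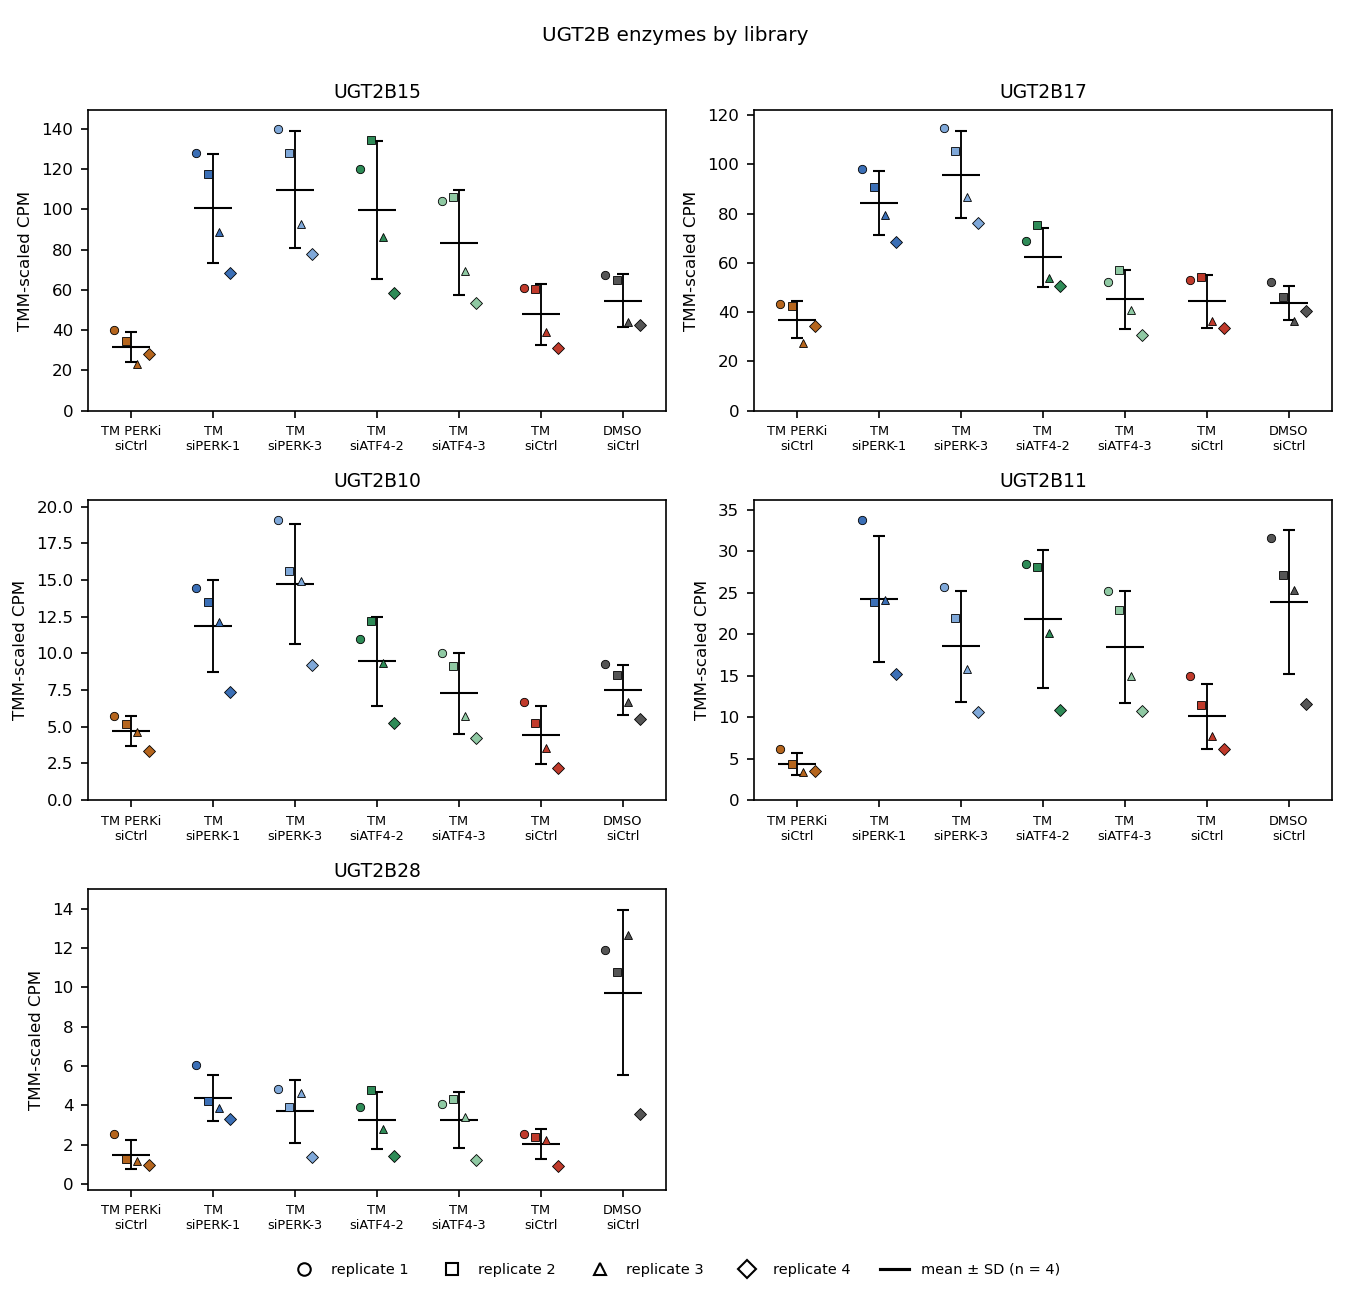
Levels of the 5 UGT2B genes in each of the 28 libraries, in TMM-scaled CPM on the vertical axis, by group on the horizontal axis. Points are libraries, with a symbol for each replicate number, and bars are group means ± SD (n = 4). UGT2B15 and UGT2B17 have their highest group means in the PERK siRNA groups, and UGT2B28 has its highest in DMSO_siCtrl.

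UGT2B15, UGT2B17 and UGT2B10 rose with both PERK siRNAs relative to TM_siCtrl. UGT2B17 had 98.3, 90.7, 79.4 and 68.7 CPM in TM_siPERK-1 and 115, 106, 86.7 and 76.2 CPM in TM_siPERK-3, all above the highest TM_siCtrl library. UGT2B15 had 128, 117, 88.7 and 68.4 CPM in TM_siPERK-1 and 140, 128, 92.8 and 77.9 CPM in TM_siPERK-3, and every one of these libraries was above every TM_siCtrl library as well. UGT2B10 had 14.5, 13.5, 12.2 and 7.34 CPM in TM_siPERK-1 and 19.1, 15.6, 14.9 and 9.23 CPM in TM_siPERK-3, again without overlap. The differences of TM_siPERK-1 to TM_siCtrl were 0.92 ± 0.20, adjusted p = 0.00164 for UGT2B17, 1.07 ± 0.30, adjusted p = 0.0106 for UGT2B15 and 1.41 ± 0.32, adjusted p = 0.00247 for UGT2B10. For TM_siPERK-3 they were 1.1 ± 0.20, adjusted p = 0.000271, 1.19 ± 0.30, adjusted p = 0.00486 and 1.70 ± 0.32, adjusted p = 0.000368 in the same order of genes. Of the 8 tested members, 5 were called in TM_siPERK-1, all higher, beside 26.4% of all genes tested (13.1% higher). In TM_siPERK-3, 3 were called higher and 2 lower (the AKR1C genes), beside 26.8% of all genes (13.1% higher, 13.7% lower). The sum of UGT2B15 and UGT2B17 was 185 ± 40.0 CPM in TM_siPERK-1 and 206 ± 46.7 CPM in TM_siPERK-3, against 92.2 ± 25.9 CPM in TM_siCtrl (SD, n = 4 each). All comparisons with TM_siCtrl share its 4 libraries, and all those with DMSO_siCtrl share that group's 4.

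UGT2B11 and UGT2B28 were less clear with the PERK siRNAs. UGT2B11 had 33.7, 23.9, 24.1 and 15.2 CPM in TM_siPERK-1 and 25.7, 22.0, 15.7 and 10.6 CPM in TM_siPERK-3, and only the first group lay wholly above TM_siCtrl. It was called in TM_siPERK-1 (1.26 ± 0.37, adjusted p = 0.016) and not in TM_siPERK-3 (0.85 ± 0.40, adjusted p = 0.12). The direct difference between the oligos was 0.40 ± 0.36 (adjusted p = 0.648), so the oligos were not shown to differ. The UGT2B11 call in TM_siPERK-1 was lost without TM_siCtrl replicate 4 (1.08, adjusted p = 0.053) and without TM_siPERK-1 replicate 1 (1.05, adjusted p = 0.066). UGT2B28 had 6.03, 4.23, 3.86 and 3.32 CPM in TM_siPERK-1 and 4.82, 3.92, 4.64 and 1.39 CPM in TM_siPERK-3. All TM_siPERK-1 libraries lay above all TM_siCtrl libraries, but neither difference was called, at 1.11 ± 0.47, adjusted p = 0.0912 and 0.85 ± 0.51, adjusted p = 0.239. An edgeR fit with the replicate number as a block called UGT2B28 in both (1.11, adjusted p = 2.12e-05 and 0.86, adjusted p = 0.00149). That fit also called UGT2B11 in TM_siPERK-3 (0.87, adjusted p = 4.47e-08), so these non-calls depend on how the replicate number is treated.

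Relative to DMSO_siCtrl, cells with PERK siRNA and tunicamycin had more UGT2B15 and UGT2B17. In TM_siPERK-1, 5 of 8 tested members were called, 4 higher and 1 lower, beside 63.9% of all genes tested (31.6% higher, 32.3% lower). In TM_siPERK-3, 6 were called, 5 higher and 1 lower, beside 61.9% (30.4% higher, 31.5% lower). UGT2B17 was higher by 0.95 ± 0.20, adjusted p = 0.000274 in TM_siPERK-1 and by 1.13 ± 0.20, adjusted p = 4.04e-05 in TM_siPERK-3. UGT2B15 was higher by 0.88 ± 0.29, adjusted p = 0.0117 in TM_siPERK-1 and by 1.00 ± 0.29, adjusted p = 0.00528 in TM_siPERK-3. None of the PERK siRNA libraries overlapped DMSO_siCtrl for these 2 genes. UGT2B10 was called higher in TM_siPERK-3 (0.97 ± 0.29, adjusted p = 0.00658) and missed the threshold in TM_siPERK-1 (0.67 ± 0.29, adjusted p = 0.0503), with overlap in both. In TM_siPERK-1, 8 of 16 alternative fits called it (adjusted p = 2.27e-07 to 0.142), and the direct difference between the oligos was −0.29 ± 0.28 (adjusted p = 0.678), so they were not shown to differ for UGT2B10. UGT2B28 was called lower than in DMSO_siCtrl, with differences of −1.13 ± 0.37, adjusted p = 0.0107 in TM_siPERK-1 and −1.39 ± 0.39, adjusted p = 0.00405 in TM_siPERK-3, with overlap. With only the compared groups fitted, these UGT2B28 values were −1.11, adjusted p = 0.0658 and −1.38, adjusted p = 0.0587. The sum of UGT2B10, UGT2B11 and UGT2B28 was 0.984 times the DMSO_siCtrl level in TM_siPERK-1 and 0.897 times in TM_siPERK-3. UGT2B28 was thus lower than in DMSO_siCtrl while that sum was near it, and how reads were split among these 3 genes was not tested.

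With the ATF4 siRNAs UGT2B15 was called higher than in TM_siCtrl, in groups that overlapped it. UGT2B15 had 120, 134, 86.5 and 58.3 CPM in TM_siATF4-2 and 104, 106, 69.5 and 53.4 CPM in TM_siATF4-3, and both groups overlapped TM_siCtrl. The differences to TM_siCtrl were 1.05 ± 0.30, adjusted p = 0.00481 in TM_siATF4-2 and 0.79 ± 0.30, adjusted p = 0.0273 in TM_siATF4-3. The call in TM_siATF4-3 was lost without TM_siCtrl replicate 3 (0.71, adjusted p = 0.0721), without TM_siCtrl replicate 4 (0.62, adjusted p = 0.0984), without TM_siATF4-3 replicate 1 (0.67, adjusted p = 0.0834) and without TM_siATF4-3 replicate 2 (0.65, adjusted p = 0.097), and with only the compared groups fitted (0.79, adjusted p = 0.0735). UGT2B17 had 68.8, 75.6, 54.0 and 50.6 CPM in TM_siATF4-2 and 52.2, 57.2, 40.7 and 30.7 CPM in TM_siATF4-3, overlapped TM_siCtrl, and was not called (0.48 ± 0.21, adjusted p = 0.0532 in TM_siATF4-2 and 0.02 ± 0.21, adjusted p = 0.935 in TM_siATF4-3). In TM_siATF4-2, 7 of 16 alternative fits called it (adjusted p = 2.33e-06 to 0.173). The pooled share of UGT2B15 in the counts of this pair was 61.7% in TM_siATF4-2 and 64.8% in TM_siATF4-3, against 51.9% in TM_siCtrl. Summed, the pair had 162 ± 45.9 CPM in TM_siATF4-2 and 128 ± 37.9 CPM in TM_siATF4-3, against 92.2 ± 25.9 CPM in TM_siCtrl (SD, n = 4 each), with overlapping ranges.

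Among the other UGT2B genes, UGT2B10 had 11, 12.2, 9.38 and 5.29 CPM in TM_siATF4-2 and 10.0, 9.17, 5.74 and 4.21 CPM in TM_siATF4-3. UGT2B11 had 28.5, 28, 20.1 and 10.8 CPM in TM_siATF4-2 and 25.2, 22.9, 15.0 and 10.8 CPM in TM_siATF4-3. All of these ranges overlapped TM_siCtrl. In TM_siATF4-2, UGT2B10 (1.08 ± 0.34, adjusted p = 0.00997) and UGT2B11 (1.1 ± 0.38, adjusted p = 0.0186) were called. In TM_siATF4-3 neither was, at 0.70 ± 0.36, adjusted p = 0.0976 for UGT2B10 and 0.86 ± 0.39, adjusted p = 0.0651 for UGT2B11. For UGT2B10, 4 of 16 alternative fits called it (adjusted p = 3.84e-06 to 0.278), and for UGT2B11, 6 of 16 alternative fits called it (adjusted p = 5.42e-09 to 0.182). The UGT2B11 call in TM_siATF4-2 was lost without TM_siCtrl replicate 3 (1.00, adjusted p = 0.0504), without TM_siCtrl replicate 4 (0.92, adjusted p = 0.0644), without TM_siATF4-2 replicate 1 (0.95, adjusted p = 0.0608) and without TM_siATF4-2 replicate 2 (0.95, adjusted p = 0.0635), and with only the compared groups fitted (1.09, adjusted p = 0.058). UGT2B28 had 3.93, 4.78, 2.81 and 1.44 CPM in TM_siATF4-2 and 4.05, 4.34, 3.41 and 1.21 CPM in TM_siATF4-3 and was called in neither. In each, 2 of 16 alternative fits called UGT2B28 (adjusted p = 0.00612 to 0.58 in TM_siATF4-2 and 0.00496 to 0.515 in TM_siATF4-3). In all, 5 of 8 tested members were called in TM_siATF4-2 (3 higher, 2 lower), beside 55.6% of all genes tested (28.4% higher, 27.2% lower). In TM_siATF4-3, 3 were called (1 higher, 2 lower), beside 61.9% (31.2% higher, 30.7% lower). The share of members lies near the background in TM_siATF4-2. In TM_siATF4-3 it lies under it here, but was 6 of 8 without the libraries numbered 4, beside 60.8% of all genes tested in that fit. Between the ATF4 oligos none of the 8 was called by edgeR, DESeq2 or limma-voom, and 2 had an unadjusted p under 0.05, beside 14.7% of all genes called by edgeR.

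Relative to DMSO_siCtrl, 3 of 8 tested members were called in TM_siATF4-2, 2 higher and 1 lower, beside 59.7% of all genes tested (29.7% higher, 30.0% lower). In TM_siATF4-3, 2 were called, both lower, beside 57.4% (29.3% lower). UGT2B28 was called lower in both, with differences of −1.57 ± 0.40, adjusted p = 0.00169 and −1.56 ± 0.40, adjusted p = 0.00206, with overlapping ranges. UGT2B15 (0.87 ± 0.29, adjusted p = 0.0145) and UGT2B17 (0.51 ± 0.21, adjusted p = 0.0379) were called higher in TM_siATF4-2. The UGT2B15 call was lost without TM_siATF4-2 replicate 2 (0.69, adjusted p = 0.0655) and with only the compared groups fitted (0.87, adjusted p = 0.0503). That of UGT2B17 was lost without DMSO_siCtrl replicate 2 (0.53, adjusted p = 0.0518), without DMSO_siCtrl replicate 3 (0.43, adjusted p = 0.105), without DMSO_siCtrl replicate 4 (0.47, adjusted p = 0.0815), without TM_siATF4-2 replicate 1 (0.46, adjusted p = 0.0883) and without TM_siATF4-2 replicate 2 (0.40, adjusted p = 0.131), with upper-quartile scaling (0.47, adjusted p = 0.0502) and without the filter on low counts (0.51, adjusted p = 0.0546). The sum over UGT2B10, UGT2B11 and UGT2B28 was 0.840 times the DMSO_siCtrl level in TM_siATF4-2 and 0.705 times in TM_siATF4-3, smaller differences than in UGT2B28 alone.

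With the PERK inhibitor no UGT2B gene was higher than in TM_siCtrl by the test. In TM_PERKi_siCtrl, UGT2B17 had 43.2, 42.6, 27.6 and 34.5 CPM and UGT2B15 had 40.1, 34.8, 23.3 and 28.2 CPM, both overlapping TM_siCtrl. UGT2B10 had 5.76, 5.18, 4.62 and 3.36 CPM and UGT2B28 had 2.56, 1.27, 1.16 and 0.971 CPM, which overlapped TM_siCtrl too. UGT2B11 had 6.21, 4.33, 3.40 and 3.51 CPM in TM_PERKi_siCtrl, the lowest group mean of that gene. None of the 8 tested members was called between TM_PERKi_siCtrl and TM_siCtrl by edgeR in the fit over all libraries, beside 35.7% of all genes tested. 1 of the 8, UGT2B11, had an unadjusted p under 0.05, at a difference of −1.26 ± 0.50 (adjusted p = 0.0565). It was not called by limma-voom and was called by DESeq2 (−1.20, adjusted p = 0.00822). For UGT2B11, 5 of 16 alternative fits called it (adjusted p = 7.86e-09 to 0.181). The other UGT2B differences to TM_siCtrl were −0.28 ± 0.22, adjusted p = 0.341 for UGT2B17, −0.62 ± 0.33, adjusted p = 0.154 for UGT2B15, 0.06 ± 0.39, adjusted p = 0.927 for UGT2B10 and −0.50 ± 0.61, adjusted p = 0.57 for UGT2B28. Relative to DMSO_siCtrl, 5 of 8 were called (2 higher, 3 lower), beside 72.9% of all genes (35.0% higher, 37.9% lower). UGT2B11 fell by 2.48 ± 0.45 (adjusted p = 3.47e-05) and UGT2B28 by 2.73 ± 0.47 (adjusted p = 1.71e-05), both without overlap. UGT2B15 fell by 0.81 ± 0.32 (adjusted p = 0.0303), a call lost without DMSO_siCtrl replicate 1 (−0.69, adjusted p = 0.0848), without DMSO_siCtrl replicate 2 (−0.71, adjusted p = 0.0752), without TM_PERKi_siCtrl replicate 3 (−0.67, adjusted p = 0.096) and without TM_PERKi_siCtrl replicate 4 (−0.76, adjusted p = 0.0692).

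The difference between both ways of blocking PERK was tested directly, as TM_PERKi_siCtrl against the mean of the PERK siRNA groups. In this comparison 6 of 8 tested members were called, 1 higher and 5 lower, beside 51.9% of all genes tested (25.8% higher, 26.1% lower). All 5 UGT2B genes were lower with the inhibitor. The difference was −1.29 ± 0.19, adjusted p = 5.28e-06 for UGT2B17, −1.75 ± 0.29, adjusted p = 2.67e-05 for UGT2B15 and −1.50 ± 0.30, adjusted p = 0.000231 for UGT2B10, with no overlap of the libraries. It was −2.31 ± 0.42, adjusted p = 8.42e-05 for UGT2B11, also without overlap, and −1.48 ± 0.49, adjusted p = 0.0157 for UGT2B28, with overlap. The UGT2B28 call was lost without TM_PERKi_siCtrl replicate 3 (−1.37, adjusted p = 0.0524) and without TM_PERKi_siCtrl replicate 4 (−1.32, adjusted p = 0.0522). AKR1C2 was higher with the inhibitor by 0.62 ± 0.17, adjusted p = 0.00255, with overlap. Its mean was 4.98 CPM with the inhibitor, 5.07 CPM in TM_siPERK-1 and 2.06 CPM in TM_siPERK-3. For AKR1C2 the inhibitor group was therefore higher than TM_siPERK-3 only. AKR1C1 differed by 0.48 ± 0.22 (adjusted p = 0.0665). EIF2AK3 was higher in the inhibitor group by 2.44 ± 0.06, adjusted p = 3.82e-30, the transcript at which only the siRNAs are directed. The groups differ in the siRNA carried as well as in the inhibitor, and these differences cannot be told apart.

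**Figure D3:**
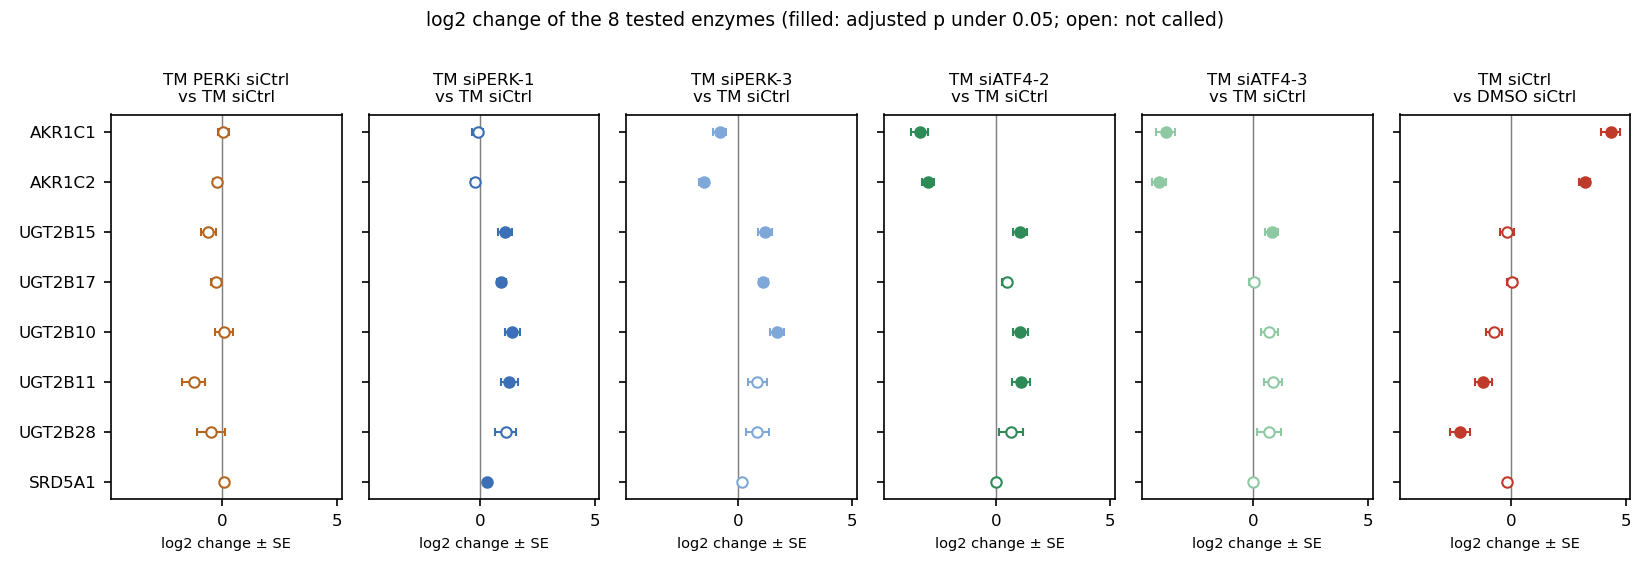
Log2 differences (horizontal axis) of the 8 tested members in 6 comparisons, 1 panel each, with bars of ± 1 standard error. Filled points are called at an adjusted p under 0.05 and open points are not. AKR1C1 and AKR1C2 lie far right in TM_siCtrl against DMSO_siCtrl and far left in both ATF4 siRNA comparisons, the UGT2B genes lie right of 0 in both PERK siRNA comparisons, and no member is called with the inhibitor.

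The mean of the ATF4 siRNA groups was compared with the mean of the PERK siRNA groups to set the 2 targets side by side. Of 8 tested members, 5 were called, all lower with ATF4 siRNA, beside 63.9% of all genes tested (32.3% lower). AKR1C1 fell by 3.13 ± 0.32 (adjusted p = 2.46e-11) and AKR1C2 by 2.68 ± 0.23 (adjusted p = 2.45e-13), both without overlap. Both genes were fully past the filter on low counts in the PERK siRNA groups and not in the ATF4 siRNA groups, so these folds are poorly bounded. Their adjusted p-values and calls hold that selection. UGT2B17 fell by 0.76 ± 0.14 (adjusted p = 7.8e-05), UGT2B10 by 0.67 ± 0.22 (adjusted p = 0.00959) and SRD5A1 by 0.23 ± 0.07 (adjusted p = 0.0028), with overlap. UGT2B15, at −0.20 ± 0.21 (adjusted p = 0.403), was not called between the targets although its near-identical neighbour UGT2B17 was.

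The level of the UGT2B genes also differed by replicate number within every group. Libraries numbered 4 lay below their group's mean in 7 of 7 groups for each of the 5 UGT2B genes, by an average of 0.91 on the log2 scale for UGT2B28, 0.68 for UGT2B11, 0.63 for UGT2B10, 0.47 for UGT2B15 and 0.27 for UGT2B17. Libraries numbered 1 lay above it in 7 of 7 groups for all 5 genes, by 0.25 to 0.54. In AKR1C1, AKR1C2 and SRD5A1 no number lay on the same side of the mean in all 7 groups. The spread that the tests of the UGT2B genes use therefore holds this difference between numbers. With the 7 libraries numbered 4 left out, an alternative chosen after seeing the data, the counts of called members relative to TM_siCtrl were 1 of 8 in TM_PERKi_siCtrl, beside 35.8% of all genes tested in that fit, and 6 of 8 in TM_siATF4-3, beside 60.8%. UGT2B28 was then called higher than in TM_siCtrl in TM_siPERK-1 (0.98, adjusted p = 0.000242), TM_siPERK-3 (0.89, adjusted p = 0.0014), TM_siATF4-2 (0.66, adjusted p = 0.00819) and TM_siATF4-3 (0.70, adjusted p = 0.00496). In TM_siATF4-3 the calls then also held UGT2B10 (0.65, adjusted p = 0.00602) and UGT2B11 (0.86, adjusted p = 0.0141). UGT2B11 was then called lower with the inhibitor (−1.35, adjusted p = 0.00929). Over all genes tested, 28 of 28 libraries correlated best with their own number. With the number as a block, 7 of 8 members were called in TM_siCtrl against DMSO_siCtrl, beside 71.7% of all genes tested in that fit. Against TM_siCtrl, 3 were called in TM_PERKi_siCtrl (40.6%) and 6 in TM_siATF4-3 (65.1%). Some non-calls of UGT2B genes therefore depend on how the number is treated. Whether a number marks 1 experiment across the groups is not given in the sources used here.

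**Figure D4:**
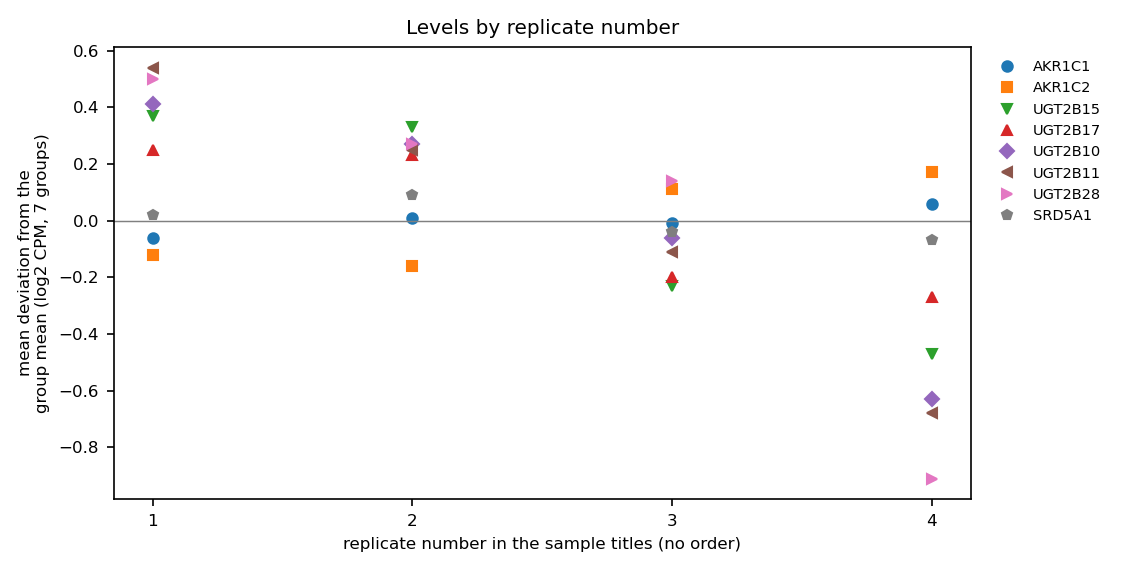
Deviation of the log2 CPM of a library from its group mean, averaged over the 7 groups (vertical axis), by replicate number in the labels (horizontal axis, with no order), for the 5 UGT2B genes and the other tested members. Each point is 1 gene. All 5 UGT2B genes lie below 0 at number 4 and above 0 at number 1.

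SRD5A1, the dihydrotestosterone-forming enzyme, differed little between groups. It averaged 19.9 ± 2.30 CPM in TM_PERKi_siCtrl, 22.8 ± 0.609 in TM_siPERK-1, 21.1 ± 1.54 in TM_siPERK-3, 19.2 ± 2.02 in TM_siATF4-2 and 18.3 ± 1.78 in TM_siATF4-3, against 18.7 ± 2.44 in TM_siCtrl and 21.5 ± 2.13 in DMSO_siCtrl (SD, n = 4 each). Neighbours in the order of these means all overlapped. It was called in TM_siPERK-1, at 0.28 ± 0.09, adjusted p = 0.0191, where the libraries had 23.6, 22.7, 22.7 and 22.2 CPM, against 20.9, 20.4, 15.6 and 17.9 CPM in TM_siCtrl. The groups did not overlap. The call was lost without TM_siCtrl replicate 3 (0.20, adjusted p = 0.109), without TM_siCtrl replicate 4 (0.26, adjusted p = 0.0522) and without TM_siPERK-1 replicate 1 (0.26, adjusted p = 0.0537). SRD5A1 fell by 0.23 ± 0.09 in TM_siATF4-3 relative to DMSO_siCtrl (adjusted p = 0.0299), with overlap, and this call was lost without DMSO_siCtrl replicate 1 (−0.17, adjusted p = 0.137), without DMSO_siCtrl replicate 2 (−0.22, adjusted p = 0.0614), without TM_siATF4-3 replicate 1 (−0.20, adjusted p = 0.0976) and without TM_siATF4-3 replicate 4 (−0.19, adjusted p = 0.109). The difference of TM_siCtrl to DMSO_siCtrl was −0.19 ± 0.09 (adjusted p = 0.0532), and its 95% interval of −0.37 to −0.02 is the narrowest of the tested members. For this difference, 5 of 16 alternative fits called it (adjusted p = 0.0176 to 0.262).

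To compare genes with each other, levels were divided by length, as RPKM. In TM_siCtrl, the level was 10.7 ± 2.60 RPKM for UGT2B17, 10.6 ± 3.35 for UGT2B15, 8.27 ± 1.08 for SRD5A1 and 5.91 ± 2.32 for UGT2B11 (SD, n = 4). The other members were at 1.60 ± 0.361 RPKM (AKR1C1), 1.42 ± 0.200 (AKR1C2), 1.11 ± 0.406 (UGT2B28), 0.537 ± 0.239 (UGT2B10) and 0.176 ± 0.0574 (AKR1C3). The lengths in the tables count more than 1 genomic copy of UGT2B10, UGT2B15 and UGT2B17. With the exon length of 1 copy the TM_siCtrl levels of these genes became 1.61, 21.2 and 21.4 RPKM. On that scale UGT2B10 changed place with AKR1C1, AKR1C2 and UGT2B28 in the order of levels. Within each of the pairs UGT2B17 and UGT2B15, and AKR1C1 and AKR1C2, the mean RPKM in TM_siCtrl differed by less than either SD.

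Other enzymes of androgen and steroid metabolism did not move as a block. Of 38 further genes listed, 26 were tested. In TM_siCtrl relative to DMSO_siCtrl, 9 were higher and 10 lower, with a median log2 difference of 0.04, beside 0.01 for all genes. Of all genes tested, 34.3% were called higher and 34.7% lower there. Relative to TM_siCtrl, 4 were higher and 6 lower with the inhibitor, 4 higher and 5 lower with either PERK siRNA, 7 higher and 9 lower in TM_siATF4-2, and 8 higher and 10 lower in TM_siATF4-3. The median differences in these 5 comparisons lay between −0.16 and 0.04, beside 0.00 for all genes. Of all genes tested, 35.7% were called with the inhibitor, 26.4% in TM_siPERK-1, 26.8% in TM_siPERK-3, 55.6% in TM_siATF4-2 and 61.9% in TM_siATF4-3. SRD5A2, the type 2 5α-reductase, averaged 1.75 ± 0.395 CPM in TM_PERKi_siCtrl and 0.618 ± 0.189 CPM in TM_siCtrl (SD, n = 4 each) and had no count in DMSO_siCtrl or TM_siATF4-3. Against a floor of 3 counts over the group, and with the TM_siCtrl counts taken as exact, TM_siCtrl was 14.6-fold higher than DMSO_siCtrl. On the same terms TM_siATF4-3 was 10.1-fold lower than TM_siCtrl. SRD5A2 passed the filter on low counts through the inhibitor group, where it is highest, so no test of that group is given. AKR1B1, an aldose reductase of the same superfamily as the AKR1C enzymes, averaged 1.39 ± 0.276 CPM in TM_siCtrl and 0.187 ± 0.0919 CPM in DMSO_siCtrl. It averaged 0.179 ± 0.212 CPM in TM_siATF4-2 and 0.101 ± 0.102 CPM in TM_siATF4-3 (SD, n = 4 each). CYP11A1, the enzyme that starts steroid synthesis from cholesterol, averaged 0.409 ± 0.303 CPM in TM_siCtrl and 1.395 ± 0.495 CPM in DMSO_siCtrl (SD, n = 4 each). The highest group mean of AKR1B1 was in TM_siCtrl and that of CYP11A1 in DMSO_siCtrl. Both lay near the filter's 0.733 CPM, so no test of these genes is given.

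Of 25 further genes of glucuronidation, 8 were tested, 3 higher and 3 lower in TM_siCtrl than in DMSO_siCtrl, with a median of 0.28 beside 0.01 for all genes. Of all genes tested, 34.3% were called higher and 34.7% lower there. The 3 higher genes were SLC35B1, UGDH and UGP2. SLC35B1, a nucleotide transporter of the endoplasmic reticulum, rose by 1.73 ± 0.05, adjusted p = 5.26e-28, UGDH, which makes UDP-glucuronic acid, by 1.09 ± 0.06, adjusted p = 2.81e-20, and UGP2, which makes UDP-glucose, by 0.78 ± 0.05, adjusted p = 1.33e-16. Relative to TM_siCtrl, 3 of the 8 were higher and 2 lower with the inhibitor, 2 higher in TM_siPERK-1, 1 higher in TM_siPERK-3, and 2 higher and 3 lower with either ATF4 siRNA. The shares of all genes called in these comparisons are those given for steroid metabolism above. UGP2 fell by 0.41 ± 0.05 in TM_siATF4-2 (adjusted p = 1.92e-08) and by 0.73 ± 0.05 in TM_siATF4-3 (adjusted p = 5.94e-15). UGDH did not pass the test in either, at −0.01 ± 0.06, adjusted p = 0.881 and −0.09 ± 0.06, adjusted p = 0.185.

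Of 18 NRF2 regulators and targets, 17 were tested, 12 higher and 3 lower in TM_siCtrl than in DMSO_siCtrl, with a median of 0.52 beside 0.01 for all genes. Of all genes tested, 34.3% were called higher and 34.7% lower there. In TM_siATF4-2 and in TM_siATF4-3, 15 of the 17 were lower and 2 higher than in TM_siCtrl, with medians of −0.73 and −0.99 beside 0.00. Of all genes tested, 27.2% were called lower and 28.4% higher in TM_siATF4-2, and 30.7% lower and 31.2% higher in TM_siATF4-3. In TM_siPERK-1, 12 were lower and 1 higher, and in TM_siPERK-3, 11 lower and 1 higher, with medians of −0.28 and −0.30. With the inhibitor, 6 were lower and 3 higher, with a median of 0.01. The called share of all genes tested was 26.4% in TM_siPERK-1, 26.8% in TM_siPERK-3 and 35.7% with the inhibitor. ME1, the malic enzyme that supplies NADPH, rose by 1.53 ± 0.07, adjusted p = 1.59e-17 in TM_siCtrl relative to DMSO_siCtrl. It fell by 1.24 ± 0.07 (adjusted p = 1.67e-14) in TM_siATF4-2 and by 1.52 ± 0.08 (adjusted p = 7.67e-17) in TM_siATF4-3 relative to TM_siCtrl. TXNRD1, a thioredoxin reductase, rose by 1.52 ± 0.06, adjusted p = 2.25e-24 with tunicamycin and fell by 0.80 ± 0.06 and 1.18 ± 0.06 with the ATF4 oligos (adjusted p = 4.7e-15 and 3.52e-20).

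All 16 genes of the androgen receptor list were tested, 14 lower and 1 higher in TM_siCtrl than in DMSO_siCtrl, with a median of −1.29 beside 0.01 for all genes. Of all genes tested, 34.7% were called lower and 34.3% higher there. The called share of all genes relative to TM_siCtrl was 35.7% with the inhibitor, 26.4% in TM_siPERK-1, 26.8% in TM_siPERK-3, 55.6% in TM_siATF4-2 and 61.9% in TM_siATF4-3. With the inhibitor, 11 were lower and 1 higher than in TM_siCtrl (median −0.50). The counts were 2 higher and 0 lower in TM_siPERK-1 (median 0.11), 1 higher and 1 lower in TM_siPERK-3 (median −0.03), 6 higher and 2 lower in TM_siATF4-2 (median 0.11), and 10 higher and 2 lower in TM_siATF4-3 (median 0.61), each beside a median of 0.00 for all genes. UGT2B15 and UGT2B17 were not called in TM_siCtrl relative to DMSO_siCtrl, the comparison in which those 14 genes fell. The edgeR fit with the replicate number as a block called UGT2B15 lower there (−0.21, adjusted p = 0.0271).

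The genes most like each member in their levels over all 28 libraries were found by Pearson's r of log2 CPM among the 12027 genes whose log2 CPM averaged 1 or more. For AKR1C1 they were ME1 (0.96) and FAAH2 (0.96), and for AKR1C2 SEL1L3 (0.97) and COX7A2L (0.97). For UGT2B15 they were NUDT8 (0.90) and GNAI1 (0.84), and for UGT2B17 OCIAD2 (0.82) and ZNF812 (0.81). UGT2B11 was most like C12orf75 (0.88) and GNAI1 (0.86), and UGT2B28 most like RHOA (0.90) and PTTG1 (0.86). For UGT2B10 the highest values were lower, with VWF (0.80) and NFKBIA (0.77), and lowest for SRD5A1, with LAPTM4B (0.73) and IL17RD (0.70). Among the members, the UGT2B genes correlated with each other at 0.40 to 0.89. Ranked by Spearman's rho instead, both named genes stayed the most alike for UGT2B15, 1 of 2 for UGT2B10, UGT2B11, UGT2B17 and UGT2B28, and 0 of 2 for AKR1C1, AKR1C2 and SRD5A1. All of these values describe libraries that share 7 groups and 4 replicate numbers.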

How the data were processed

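RNA of 28 LNCaP libraries was sequenced after strand-specific library preparation, per the labels' protocols. The authors deposited whole-number read counts per gene in 6 tables of 25369 named genes. Alignment to hg19 with TopHat2 2.1.0, counting with featureCounts 1.5.0-p1 and analysis with DESeq2 1.10.1 are named in the submitters' processing notes. The sources used here do not give the annotation, the use of strand or the treatment of reads that match several genes, and such reads could move counts between near-identical members. TM_siCtrl counts appear in several tables, were identical in all, and entered once. The 1 unnamed line summed to 0 and was dropped.

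Members were taken by exact symbol. Counts were tested with edgeR 4.0.16 (R 4.3.3): TMM factors, filterByExpr by group (minimum count 10, minimum total 15), a group-means model over all libraries with robust quasi-likelihood dispersion, and 15 contrasts with Benjamini-Hochberg adjustment at 0.05 over 14314 genes. Standard errors are the log2 fold change divided by the square root of F. The 95% intervals of differences use a normal approximation with these errors, so they are somewhat narrower than the test itself implies. Levels are TMM-scaled CPM, and per-length levels RPKM. Poisson intervals are exact at 95%. Folds to a group without counts use a floor of 3 counts over that group and take the other group's counts as exact. Poisson intervals and floors cover counting error only. The number of libraries per group, 4, sets the precision of each comparison at totals of 10794637 to 17253801 counts. Alternatives were other scalings, no filter, DESeq2 1.42.0, limma-voom (limma 3.58.1), a replicate block, the compared groups alone, each library left out, and summed near-identical genes. The procedure was tested on simulated data first.

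The members and gene lists were chosen with earlier results of these data known. Named list genes are the 4 tested genes of each list with the largest absolute log2 difference between TM_siCtrl and DMSO_siCtrl among those called, of which the text gives some. Sequences came from RefSeq (GRCh38.p14) and GENCODE v29 (GRCh38).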

Additional observations from a re-analysis of the deposited data

Results flagged for a closer look

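In 62 groups of 4 libraries, the lowest or highest level of a member was compared with the rest of its group, and 2 groups held a library beyond Dixon's 95% critical value, where chance gives about 1 in 20. Both were replicate 4 for UGT2B28. It had 0.93 CPM in TM_siCtrl, where the other libraries had 2.56, 2.38 and 2.25 CPM, and 3.54 CPM in DMSO_siCtrl, where the others had 11.9, 10.8 and 12.7 CPM.

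The effect of PERK siRNA on AKR1C2 differed between the oligos, with a log2 difference of 1.29 between TM_siPERK-1 and TM_siPERK-3 (edgeR adjusted p = 7.52e-05). TM_PERKi_siCtrl differed from the mean of the PERK siRNA groups by 0.62 for AKR1C2, −1.29 for UGT2B17, −1.75 for UGT2B15, −1.50 for UGT2B10, −2.31 for UGT2B11 and −1.48 for UGT2B28 on the log2 scale (edgeR adjusted p = 0.00255, 5.28e-06, 2.67e-05, 0.000231, 8.42e-05 and 0.0157 in that order). For AKR1C2 the inhibitor mean of 4.98 CPM was above the 2.06 CPM of TM_siPERK-3 and not above the 5.07 CPM of TM_siPERK-1.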

How the results depend on the processing

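Of 2011 alternative values of single members' log2 changes, 1837 kept their direction and their side of the threshold, 39 lost the call, 82 gained one and 53 changed sign. The cause of these changes was not tested. No scaling moved the median of all genes by 0.1 or more, but genes called between TM_siPERK-1 and TM_siPERK-3 were 47.4% higher with TMM and 60.1% higher with upper-quartile factors.

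The numbers 1 to 4 were treated as a shared number only. In each comparison of 2 groups at least 1 same-numbered pair had a correlation of deviations of 0.1 or less (0.02 to 0.30 in all), although 28 of 28 libraries correlated best with their own number. With the replicate block, called members were 7 of 8 for TM_siCtrl against DMSO_siCtrl (beside 71.7% of all genes tested in that fit), 3 for TM_PERKi_siCtrl (40.6%) and 6 for TM_siATF4-3 (65.1%) against TM_siCtrl, 4 for TM_siATF4-3 against DMSO_siCtrl (60.8%), 3 between the PERK oligos (8.35%) and 3 between the ATF4 oligos (20.2%). The 3 with the inhibitor were UGT2B11 (−1.21, adjusted p = 7.86e-09), UGT2B15 (−0.58, adjusted p = 1.37e-05) and UGT2B17 (−0.26, adjusted p = 0.0109), all lower. Genes called with the block were 1195 between the PERK oligos, against 677 without it.

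Without the libraries numbered 4, a choice made after seeing the data, called members were 1 for TM_PERKi_siCtrl (beside 35.8% of all genes tested in that fit) and 6 for TM_siATF4-3 (60.8%) against TM_siCtrl, and 5 for TM_siATF4-2 (58.6%) and 4 for TM_siATF4-3 (57%) against DMSO_siCtrl. DESeq2 called UGT2B11 with the inhibitor against TM_siCtrl (−1.20, adjusted p = 0.00822), as did the edgeR fit to the compared groups only (−1.25, adjusted p = 0.0294). The edgeR fit without a filter called AKR1C3 between the ATF4 oligos (adjusted p = 0.0491). The signs that changed without the libraries numbered 4 were those of AKR1C1 (−0.01) and UGT2B10 (−0.03) with the inhibitor, SRD5A1 in TM_siATF4-2 (−0.01) against TM_siCtrl, and AKR1C1 between the ATF4 oligos (−0.11). Against DMSO_siCtrl they were UGT2B11 in TM_siPERK-1 (−0.03), AKR1C1 (−0.20) and AKR1C2 (−0.30) in TM_siATF4-2, and AKR1C1 (−0.08) and UGT2B10 (0.02) in TM_siATF4-3. Upper-quartile factors turned SRD5A1 in TM_siATF4-2 (−0.01) and UGT2B17 in TM_siATF4-3 (−0.01) against TM_siCtrl.

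With each library left out in turn, called members ranged from 0 to 1 (TM_PERKi_siCtrl), 3 to 5 (TM_siPERK-1) and 2 to 5 (TM_siATF4-3) against TM_siCtrl, 1 to 3 for TM_siATF4-3 against DMSO_siCtrl, and 0 to 1 between the ATF4 oligos. Genes called between the PERK oligos ranged from 392 to 627. Log2 differences with a changed sign ranged as follows against TM_siCtrl: AKR1C1 −0.07 to 0.18 and UGT2B10 −0.17 to 0.34 with the inhibitor, AKR1C1 −0.27 to 0.04 in TM_siPERK-1, SRD5A1 −0.04 to 0.09 in TM_siATF4-2, and SRD5A1 −0.11 to 0.02 and UGT2B17 −0.12 to 0.17 in TM_siATF4-3. Against DMSO_siCtrl the ranges were UGT2B17 −0.08 to 0.15 in TM_siCtrl, UGT2B11 −0.20 to 0.21 in TM_siPERK-1, SRD5A1 −0.08 to 0.04 in TM_siPERK-3, UGT2B11 −0.36 to 0.10 and AKR1C2 −0.30 to 0.49 in TM_siATF4-2, and UGT2B10 −0.21 to 0.16 and UGT2B17 −0.09 to 0.20 in TM_siATF4-3. Between the PERK oligos UGT2B15 ranged from −0.26 to 0.02 and UGT2B28 from −0.01 to 0.42, between the ATF4 oligos AKR1C1 from −0.47 to 0.90, and between the siRNA targets UGT2B11 from −0.18 to 0.03.

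With near-identical genes summed, which gives values with no test, the fold moved by over 1.5 times in 17 of 105 values. Against DMSO_siCtrl the log2 ratio of AKR1C1 with AKR1C2 was 3.46 in TM_siCtrl, 3.29 in TM_PERKi_siCtrl, 3.27 in TM_siPERK-1, 2.18 in TM_siPERK-3, 0.40 in TM_siATF4-2 and −0.61 in TM_siATF4-3, which moved AKR1C1 by over 1.5 times in all 6. For UGT2B10, UGT2B11 and UGT2B28 together it was −1.30, −1.98, −0.01, −0.15, −0.25 and −0.50 in the same order, which moved UGT2B28 by over 1.5 times in all 6, and UGT2B10 in TM_PERKi_siCtrl, TM_siPERK-1, TM_siPERK-3 and TM_siATF4-2. UGT2B10 moved likewise with the inhibitor against TM_siCtrl (−0.68). The sum had the other sign from the single gene in 9 of 105 values. Against DMSO_siCtrl these were UGT2B10 in TM_siPERK-1, TM_siPERK-3 and TM_siATF4-2, UGT2B11 in TM_siPERK-1, AKR1C1 in TM_siATF4-3 and UGT2B17 in TM_siCtrl (−0.09). The others were AKR1C1 (−0.16) and UGT2B10 (−0.68) with the inhibitor against TM_siCtrl, and UGT2B10 between the PERK oligos (0.14). AKR1C1 with 7 counts over DMSO_siCtrl and AKR1C3 with 92 in all are limited by depth.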
